A study of Homo sapiens with 36 samples.

Results

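Silencing of the transcription factor GATA3 in CCRF-CEM, an established human line of T-cell acute lymphoblastic leukaemia (T-ALL), was followed in 6 RNA sequencing libraries, taken by their titles from the 36 libraries of a study of 7 T cell neoplasm lines. The 3 control libraries came from CCRF-CEM cells with a scrambled short hairpin RNA, and their genotype is given as wild type. The 3 knockdown libraries came from cells of the same line with a hairpin against GATA3. No drug, dose or time after introduction of the hairpin is given, and polyadenylated RNA was sequenced. All 21138 genes that passed the expression filter in the series were compared between the 3 and 3 libraries. The spread behind each p-value was estimated in a single model of all 36 libraries in 14 groups, not from the 6 libraries alone. Nothing in the labels says that the replicates were separate cultures or that they carried the same hairpin, so the spread against which p-values are judged here may be only technical.

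GATA3 is a zinc finger protein that binds the base sequence GATA. In the thymus it is needed for commitment of progenitors to the T lineage and for development of CD4 cells, and in the periphery it drives T helper type 2 (Th2) differentiation. T-ALL cells are blocked at thymocyte stages, and their state is held by factors such as TAL1, LYL1, NKX2-5, MYB, RUNX1 and activated NOTCH1, some of which work in complexes with GATA3.

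Library totals ran from 19371069 to 31690823 counts, and replicates within an arm correlated at 0.985 to 0.998 (Pearson r of log2 levels over 10580 genes). Across arms r was 0.9736 to 0.9895, so the 2 ranges overlapped. Control 2 stood apart from the other 5 libraries. It was the shallowest, and its 10 most abundant genes took 9.33% of its counts against 5.70% to 5.76% elsewhere. In it 3 noncoding entries of equal counts on chromosome 21 made up 4.71% of the counts against 0.103% to 0.411% in the others. Short RNAs that normally carry no poly(A) tail were higher too: the signal recognition particle RNAs RN7SL1 and RN7SL2 made up 0.179% against 0.0123% to 0.024%, and RN7SK 0.0115% against at most 0.00124%. Values resting on control 2 are therefore also given without it, and its part in the other results was not tested beyond that. Levels are given as CPM, a gene's counts relative to the total of its library after scaling by the trimmed mean of M values (TMM), and folds are log2 values of knockdown minus control.

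GATA3 itself (ENSG00000107485, chromosome 10, 8045378 to 8075203, plus strand, GRCh38) stood at 82.6, 92.2 and 84.1 CPM in controls 1 to 3 and at 45.8, 41.8 and 44.9 CPM in knockdowns 1 to 3. Each knockdown library kept about the same residual level, and the groups were far apart. Without control 2, its highest library, the log2 fold change was -0.89. The antisense gene GATA3-AS1, which overlaps GATA3 on the minus strand, rose from 3.78, 2.53 and 3.21 CPM to 5.79, 5.21 and 6.1 CPM (log2 fold change 0.83, SE 0.181, edgeR adjusted p = 0.00267). Whether reads were counted by strand is not stated in the material used here, so reads of bases shared by the pair may not have been told apart.

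The libraries carried the T lymphoblast identity of the label. Of 17 markers, 14 reached 1 CPM, among them CD3E (342 to 366 CPM in controls, 354 to 364 in knockdowns), CD4, CD7, RAG1, NOTCH1 and TAL1. CD2, DNTT and PTCRA stayed under 1 CPM, and PTCRA was at 0 in every library. Single markers moved both ways: CD1A, CD1B and RAG1, among others, were above every control in each knockdown library, and CD7, CD5 and CD8A below. The summed level of the 17 was 1230 to 1320 CPM in controls and 1340 to 1400 CPM in knockdowns. NKX2-5, the homeobox gene known to be activated in CCRF-CEM, was at 604, 697 and 634 CPM and 667, 697 and 689 CPM in the same order and was not called (edgeR adjusted p = 0.618). Most markers of other cell types were at or near 0, and MS4A1, KLRD1, NCR1, FCGR3A, HBB, HBG1, COL3A1 and CDH5 had no count in any of the 6 libraries. The summed level of 7 B cell markers was 27.4 to 29 CPM in controls and 17.6 to 19.2 CPM in knockdowns, nearly all of it CD79B and CD79A. That of 7 non-haematopoietic markers was 4.07 to 5.01 CPM and 2.33 to 3.35 CPM, mostly EPCAM and KRT8, that of 7 erythroid or megakaryocytic markers 0.7 to 0.772 CPM and 0.155 to 0.602 CPM, and that of 4 NK cell markers at most 0.269 CPM. The part of these sums in the results was not tested. In bulk RNA, a smaller number of cells and less RNA per cell cannot be told apart.

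The knockdown response was broad and mostly of modest size. Of the 21138 genes tested, edgeR called 8.44% at an adjusted p of 0.05, with 3% called higher and 5.43% called lower. Of the calls 35.61% were higher, and with scaling to library totals in place of TMM 50.76% of 1842 were. Without control 2, 1150 genes were called and 1087 of the 1783 calls were kept, and 1083 and 1158 were called without knockdown 2 and knockdown 3. The share called rose with level, from 2.15% of genes under 1 CPM to 13.9% of the 2266 genes at 100 CPM or more. In that top level 124 genes were higher and 192 lower, and the median size of their change was 0.33 on the log2 scale. Over all levels 402 genes (1.9%) were called and changed by at least 1, while 10.2% of tested genes, called or not, changed that much. Knockdown and control libraries did not overlap for 28.6% of tested genes, 12.8% higher and 15.9% lower.

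**Figure D1:**
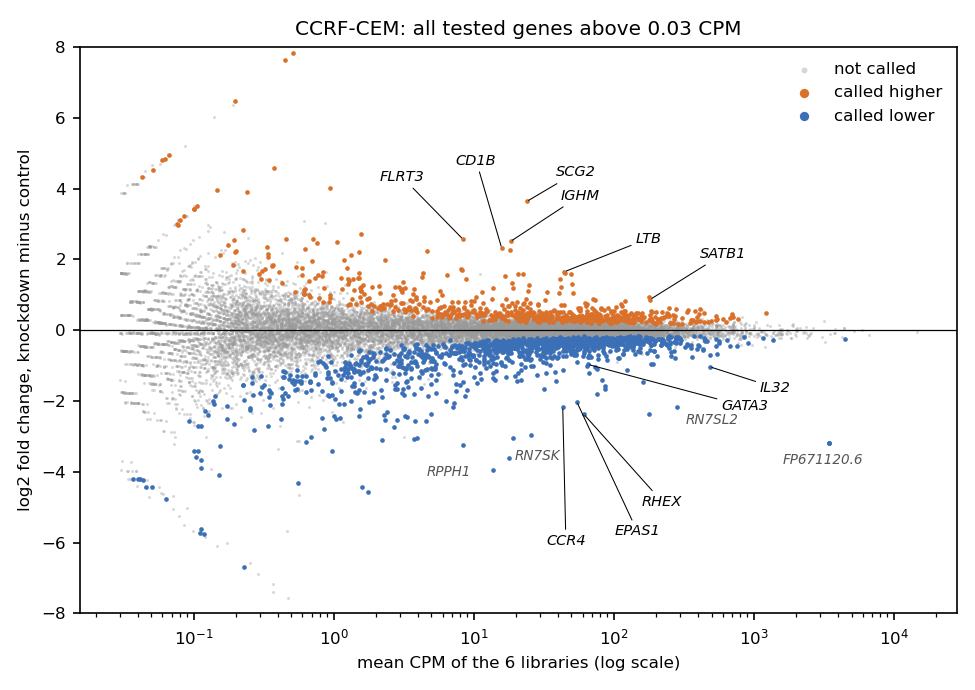
Log2 fold change of each tested gene against its mean CPM over the 6 CCRF-CEM libraries (log axis); genes called by edgeR are orange (higher) or blue (lower) and the others grey. Labelled in grey are RPPH1, RN7SK, RN7SL2 and FP671120.6, noncoding RNAs that were high in control 2, and in black genes described in the text, with SCG2 at 3.64, GATA3 at -0.97 and RHEX at -2.37.

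The 12 genes with the lowest fold changes, all with a mean of at least 5 CPM and no overlap between groups, included a signalling adaptor (RHEX, the lowest), a chemokine receptor and several regulators and membrane proteins. RHEX, which couples the erythropoietin receptor to its downstream signals, stood at 109, 98.8 and 99.3 CPM in controls and 25, 17.6 and 16.9 CPM in knockdowns. CCR4, a receptor for CCL17 and CCL22 that marks Th2 and skin-homing T cells, stood at 73.7, 65.6 and 73.2 CPM and 19.1, 13.6 and 14.6 CPM. LYL1, a basic helix-loop-helix factor that can drive T-ALL, stood at 128, 145 and 123 CPM and 45.4, 41 and 39.5 CPM. In these 3 genes every knockdown library lay well below the lowest control, and control 2 was the lowest control of RHEX and CCR4 and the highest of LYL1. The fold changes were -2.37 (SE 0.306) for RHEX, -2.17 (0.124) for CCR4 and -1.66 (0.118) for LYL1, with edgeR adjusted p of 2.65e-05, 7.28e-13 and 6.81e-11.

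EPAS1, the hypoxia-inducible factor HIF-2 alpha, stood at 80.7, 94.8 and 87.5 CPM in controls and 26.4, 17.9 and 20.3 CPM in knockdowns. ANXA1, the phospholipid-binding protein annexin A1, stood at 123, 116 and 113 CPM and 37.9, 31.7 and 32.1 CPM. RAP1GAP, which inactivates the small GTPase RAP1, stood at 46.9, 50.9 and 48.2 CPM and 18.2, 14 and 14.2 CPM. Knockdown 1 was the highest of the knockdown libraries for all 3 and for CCR4, LYL1 and RHEX, yet far below every control. The other 6 genes of this set were at lower levels: WDFY4, with the second lowest fold change (11.7 to 2.59 CPM on average), which acts in antigen cross-presentation and overlaps LRRC18 on the other strand, SFN, the cell cycle checkpoint protein 14-3-3 sigma (10.1 to 2.53), ANXA3 (13.7 to 3.79), TNS4, a tensin of focal adhesions (8.34 to 2.45), SIGLEC12, a sialic acid-binding lectin relative (11.4 to 3.48), and SEMA4A, a semaphorin that acts on T cells (13.6 to 4.22). All 12 kept the call without control 2.

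The 12 genes with the highest fold changes started low in controls. SCG2, the granin secretogranin II, stood at 2.43, 2.64 and 5.36 CPM in controls and 39.4, 45.4 and 48.4 CPM in knockdowns. CD1B, which presents lipid antigens and marks cortical thymocytes, stood at 5.21, 3.56 and 6.77 CPM and 26.3, 26.2 and 27.2 CPM. Its neighbour CD1A stood at 20.4, 21 and 24.4 CPM and 63.5, 69.6 and 70.1 CPM. The knockdown libraries sat close together for all 3, while control 3 was the highest control and stayed below every knockdown. The fold changes were 3.64 (SE 0.251) for SCG2, 2.32 (0.138) for CD1B and 1.62 (0.0827) for CD1A, with edgeR adjusted p of 8.37e-11, 6.76e-10 and 6.94e-11.

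LTB, the membrane-bound lymphotoxin beta that directs lymphoid organ formation, stood at 18.5, 19.7 and 26.1 CPM in controls and 64.1, 67.9 and 71 CPM in knockdowns. PTPN3, a cytoplasmic tyrosine phosphatase, stood at 10.9, 10.9 and 11.6 CPM and 31.8, 34.2 and 35.3 CPM. CLEC11A, a secreted growth factor of blood and bone progenitors, stood at 22.4, 24.6 and 27 CPM and 69.5, 76.5 and 76.8 CPM. Each was about the same in the 3 knockdown libraries, with no overlap, as was required for a gene to enter this set. On chromosome 14, 3 genes of the immunoglobulin heavy chain locus rose: IGHM, the mu constant region (5.47 to 31.3 CPM on average), the long noncoding FAM30A beside it (6.24 to 30.0) and the variable segment IGHV4-59 (10.3 to 31.2), one of several near-identical segments between which reads can be split. FLRT3, a cell surface adhesion and guidance protein (2.41 to 14.4), SLC18A2, a vesicular monoamine transporter (3.73 to 12.5), and HBEGF, a ligand of the EGF receptor (3.88 to 12.6), completed the set. These 12 also kept the call without control 2.

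**Figure D2:**
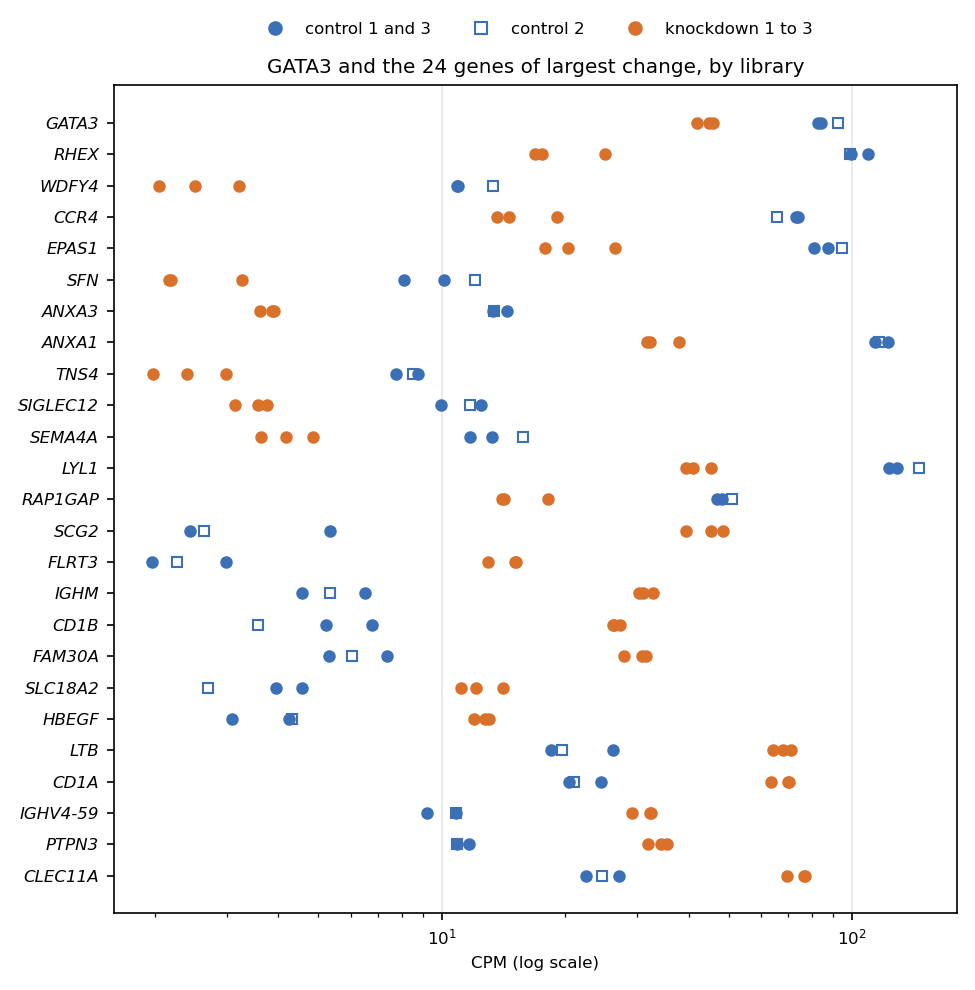
CPM (log axis) of GATA3 and of the 12 lowest and 12 highest fold changes in each library; filled blue circles are controls 1 and 3, the open square is control 2 and orange circles are knockdowns 1 to 3. No knockdown library overlaps a control for any of the 25 genes, which was a condition for choosing all of them but GATA3. Control 2 lies beside the other controls.

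Since GATA3 binds sites around the letters GATA, the promoters of these genes were searched on both strands for the word AGATAA, its form AGATAG with a changed end, its form TGATAA with a changed start, and the form TGATAG with both changes, in the 300 bases from 250 before to 50 after the RefSeq start site. Of the 24 genes 18 had a promoter in the table, and 3 of the lowest 12 (RHEX, CCR4 and LYL1) and 3 of the highest 12 (CD1A, PTPN3 and CLEC11A) held a match. The following stretches carry matches of 4 of these genes in capitals, read 5′ to 3′ on the gene's strand of GRCh38.p14, and show what was found on each side of the response. A match read on the other strand appears here as its reverse complement.
RHEX, chr1:206083466-206083495, plus strand: cgagcgagattgCTATCTtctgagtggcag
CCR4, chr3:32951551-32951580, plus strand: gttgggtgagggAGATAActcgtgctcaca
LYL1, chr19:13102868-13102897, minus strand: cagccaggctccTTATCAggcgcggccagg
CD1A, chr1:158248132-158248161, plus strand: cagcacacaggcAGATAAagcgagtccttc
The matched word shown begins 117 bases before the start site in RHEX, 81 in CCR4, 27 in LYL1 and 192 in CD1A. A further match, not shown, begins 159 bases before the start site in RHEX, 124 before it in CCR4 and 2 after it in LYL1. The matches of PTPN3 and CLEC11A are not shown either. Over all tested genes at 1 CPM or more, 115 of 764 promoters of genes called lower held a match (15.1%), 69 of 433 of genes called higher (15.9%) and 13.9% of the 8033 not called, against 25.5% of all 27305 promoters in the table. The shares lie close together, and a match is a description of the sequence, not a sign that GATA3 binds there.

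Among abundant genes, at 100 CPM or more, the 5 lowest p-values in the downward direction belonged to KCNH2, VAT1, STAT5A, IKZF1 and IL32, in that order. KCNH2, a voltage-gated potassium channel also found on leukaemia cells, stood at 217, 276 and 220.4 CPM in controls and 93.7, 81.6 and 83.7 CPM in knockdowns. IL32, a proinflammatory cytokine of T and NK cells, stood at 644, 667 and 647 CPM and 337, 302 and 317 CPM. IKZF1, the zinc finger factor Ikaros, stood at 317, 317 and 337 CPM and 203, 186 and 191 CPM. For these 3 the groups were apart, and control 2 was the highest library of KCNH2 and IL32. STAT5A, which transmits signals of cytokine receptors (455 ± 28.3 to 270.4 ± 9.73 CPM, SD, n = 3 and 3), and VAT1, a vesicle membrane protein (255 ± 11.9 to 152 ± 6.86), also fell. In the upward direction SATB1, a chromatin organiser of thymocytes, stood at 125, 125 and 137 CPM in controls and 225, 234 and 246 CPM in knockdowns. CDKN2C, the cell cycle inhibitor p18, stood at 83.1, 86 and 91.9 CPM and 149.5, 154 and 160.4 CPM. NREP (122 ± 16 to 235 ± 12.3 CPM), ITM2C (84.2 ± 8.02 to 142 ± 6.08) and the collagen chaperone SERPINH1 (81.2 ± 2.5 to 127 ± 3.58) also rose without overlap. The edgeR adjusted p of these 10 genes ran from 1.57e-12 (KCNH2) to 8.73e-08 (SERPINH1 and NREP).

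Genes were also grouped into 40 lists by role, whose counts are read against the shares over all tested genes (3% higher, 5.43% lower) and, at 1 CPM or more, against 4.32% higher, 7.91% lower and a median fold change of -0.00438. List medians are over members at 1 CPM or more.

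**Figure D3:**
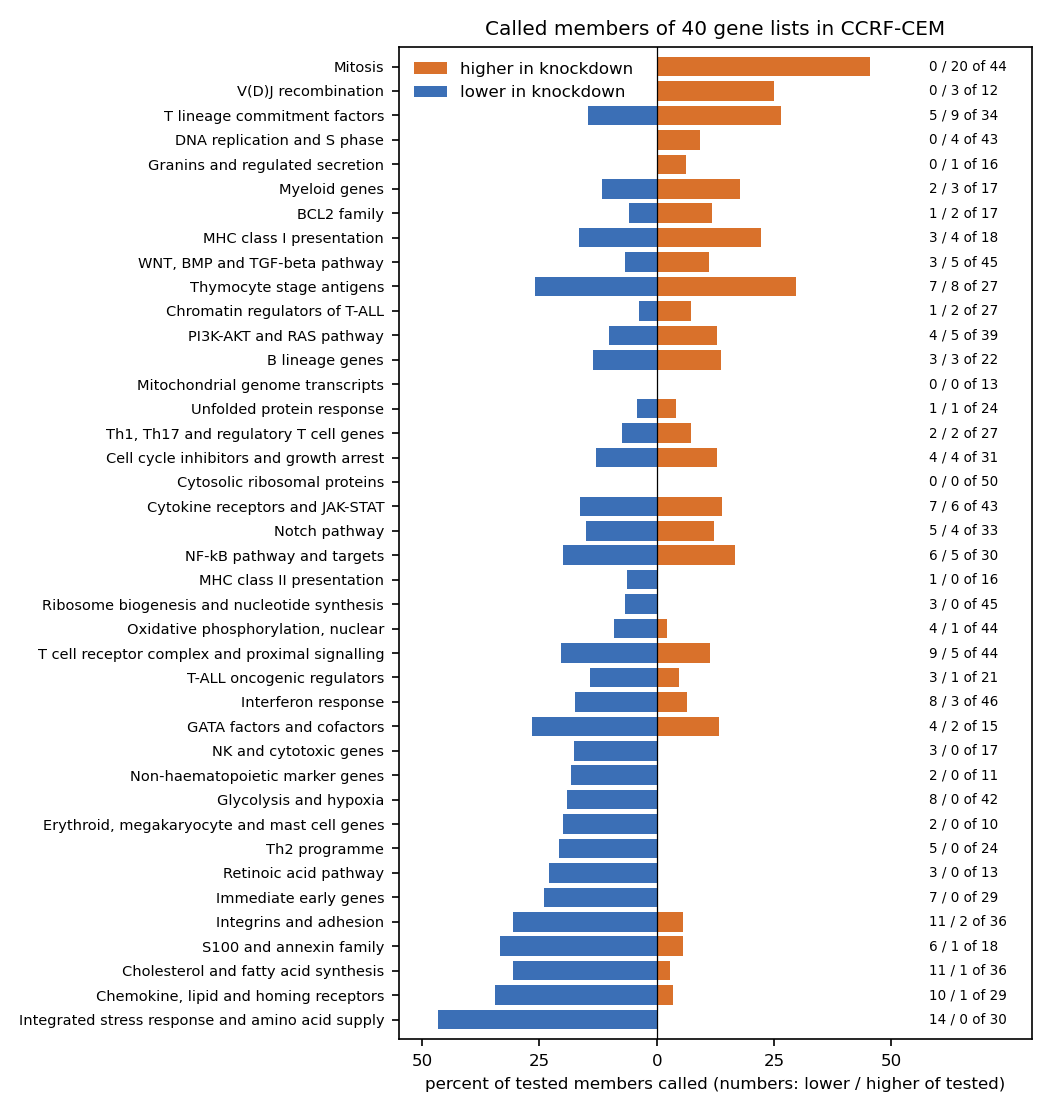
Percent of the tested members of each of the 40 lists called lower (blue, to the left) or higher (orange, to the right), with the numbers lower, higher and tested at the right. Mitosis, with 20 of 44 members higher, is at the top, and integrated stress response and amino acid supply, with 14 of 30 lower, at the bottom. The list labelled cell cycle inhibitors and growth arrest also holds targets of p53.

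Regulators of the T lineage and of T-ALL moved in both directions. Of 34 tested factors of T lineage commitment 9 rose and 5 fell, with 3 lower without control 2, control 3, knockdown 2 or knockdown 3. Large changes were seen in 2 genes of low level: ZBTB16, the factor PLZF of innate-like T cells, fell from 1.51, 1.99 and 1.83 CPM to 0.281, 0.0673 and 0.154 CPM, and KLF2, which promotes quiescence and exit from the thymus, rose from 1.62, 1.29 and 1.86 CPM to 7.91, 6.56 and 8.45 CPM. BCL11A, a zinc finger repressor of early lymphoid cells, rose from 46 ± 1.73 to 69.2 ± 1.67 CPM, and ZBTB18, a repressor of the same broad class, from 21.8 ± 0.895 to 31.2 ± 0.221 CPM. TCF7 (599 ± 28.3 and 710.2 ± 30.3 CPM), BCL11B (63.2 ± 6.48 and 64.4 ± 1.75) and RUNX1 (142 ± 6.31 and 158 ± 4.65), which act beside GATA3 in commitment, were not called. Among 21 T-ALL oncogenic regulators LYL1, HHEX (41.6 ± 0.983 to 24.4 ± 1.35 CPM) and ARID5B (27.5 ± 2.7 to 18.4 ± 0.952) fell, and MEF2C rose (45.3 ± 3.24 to 67.8 ± 3.37). TAL1 (40.6, 43.3 and 43.6 CPM in controls, 44, 44.5 and 43.6 in knockdowns) and MYB (571 ± 25.9 and 546 ± 4.18 CPM) overlapped between groups. MYC (481 ± 30.4 and 392 ± 8.85 CPM) was lower in every knockdown library but not called (edgeR adjusted p = 0.554). Of 15 GATA factors and cofactors, the list that holds GATA3 and GATA3-AS1 themselves, 4 fell and 2 rose (2 lower without control 2, knockdown 1 or knockdown 2). ZFPM1, the GATA-binding protein FOG1, fell (9.65, 12.2 and 10.3 CPM to 5.42, 5.58 and 6.75 CPM) and SSBP2, a partner of LDB1 in GATA complexes, rose (64 ± 4.51 to 98 ± 4.16). GATA2 was called lower (26.8, 32.9 and 27.4 to 21.1, 21.7 and 21 CPM) but lost the call without control 2 or any 1 of the knockdown libraries, and TRPS1, at under 1 CPM, without any library except knockdown 3.

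Surface antigens of thymocyte stages moved both ways. Of 27 tested, 8 rose and 7 fell, and the same numbers held without control 2. The antigens that rose included 4 of the CD1 family, with CD1C at 2.36, 1.56 and 2.37 CPM in controls and 6.87, 6.12 and 6.83 in knockdowns, the interleukin 7 receptor chain IL7R (7.65, 5.66 and 7.44 to 12, 11.8 and 13.2 CPM) and PTPRC, the phosphatase CD45 (196 ± 21.2 to 300.3 ± 14.9). CD44, the hyaluronan receptor, fell from 188, 182 and 192 CPM to 123, 118 and 124 CPM, and the groups were clearly apart. Also below every control in each knockdown library was CD7 (50.6, 65.1 and 50.4 to 39.8, 39.2 and 39.4 CPM). The same held for CD5 (4.83, 6.14 and 4.81 to 3.69, 3.09 and 2.97 CPM) and CD8A (2.39, 2.75 and 2.34 to 1.16, 1.11 and 1.35 CPM). The list median was -0.16. CD4 (156 ± 9.01 and 151 ± 8.84 CPM) and CD38 (149 ± 9.4 and 123 ± 3.52) were not called. Of 12 V(D)J recombination genes 3 rose, 1 without control 2 or knockdown 2, and none fell: RAG1, the recombinase subunit, went from 57.2, 48.5 and 58.8 CPM to 81.8, 86.4 and 85.9 CPM, with control 2 the lowest control. RAG2 (8.76 to 13.5 CPM) and HMGB2 (593 to 753), which bends DNA for the recombinase, lost the call without control 2 or knockdown 2, RAG2 also without control 3 and HMGB2 also without knockdown 3. RAG1 and RAG2 overlap on opposite strands.

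Of 44 genes of the T cell receptor complex and its proximal signalling 5 rose and 9 fell (3 higher without knockdown 2). The receptor constant gene TRBC2 rose from 972, 1076 and 1011 CPM to 1406, 1418 and 1489 CPM, a fold change of 0.50 (SE 0.081); its near-identical copy TRBC1 can share its reads. CD3E (351 ± 13.1 and 361 ± 6.17 CPM), LCK (156 ± 3.95 and 142 ± 7.66) and ZAP70 (232 ± 21 and 206 ± 4.24), the core signalling parts, were not called. Those that fell include the costimulatory receptor CD28 (2.66, 2.59 and 3.37 CPM to 1.17, 1.04 and 1.27 CPM) and the adaptor SH2D2A (14.8 ± 1.95 to 8.97 ± 0.689).

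More receptors that guide migration fell than rose. Of 29 chemokine, lipid and homing receptors 10 fell and 1 rose, with a median of -0.59, and without control 2 there were 7 and 1. SELPLG, the P-selectin ligand, fell from 28.8, 34.9 and 27.8 CPM to 19.4, 17.8 and 17.4 CPM. The sphingosine 1-phosphate receptors S1PR4 (76.7 ± 4.7 to 53.2 ± 2.8 CPM) and S1PR2 (5.52 ± 0.55 to 3.3 ± 0.247) fell as well, and S1PR1 (5.14 ± 0.317 and 4.11 ± 0.388) was not called. CXCR4, the CXCL12 receptor that retains cells in marrow and thymic cortex, went the other way, from 153, 149 and 153 CPM to 214, 219 and 227 CPM (fold change 0.54, SE 0.0807, edgeR adjusted p = 3.06e-05).

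Of 36 integrins and adhesion genes 11 fell and 2 rose, with a median of -0.41; 8 fell without control 2 and 7 without any 1 of the knockdown libraries. ICAM1, a ligand of the integrin LFA-1, fell from 10.9, 11.6 and 10.8 CPM to 5.5, 5.78 and 5.48 CPM, and ICAM3 from 94.1 ± 6.2 to 69.9 ± 3.21 CPM. CD96, an immunoglobulin-like receptor for CD155, was at 2.37 CPM in controls and 0.81 CPM in knockdowns. The alpha V integrin ITGAV rose (13.7 ± 1.86 to 23.6 ± 2.2 CPM), as did FLRT3.

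In cytokine signalling 7 of 43 receptors and JAK-STAT members fell and 6 rose (3 higher without knockdown 2). IL21R, the interleukin 21 receptor, fell from 90.0, 99.5 and 89.6 CPM to 42.8, 36.8 and 40.7 CPM. IL9R, the receptor of the Th2 cytokine interleukin 9, fell from 10.9, 12.8 and 12.1 CPM to 4.54, 3.6 and 4.17 CPM. EPOR, the erythropoietin receptor to which RHEX couples, fell from 28.1, 28.2 and 27.9 CPM to 17.5, 16.5 and 16.7 CPM. In all 3 the spread within each arm was small beside the gap. STAT5B (220.5 ± 12 and 198 ± 4.4 CPM) and JAK3 (28.1 ± 1.56 and 27.9 ± 0.624) were not called.

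The Th2 list, which shares several of these genes, had 5 of 24 members lower and none higher: CCR4, STAT5A, IL9R, the AP-1 subunit JUNB (62.9 ± 4.1 to 45.7 ± 0.984 CPM) and the prostaglandin D2 receptor PTGDR2. PTGDR2, at 1.24 and 0.67 CPM, lost the call without control 2, control 3, knockdown 2 or knockdown 3, and with DESeq2 and limma-voom. Most Th2 cytokine genes were below 1 CPM, and only 10 of the 24 reached it. Of 27 genes of other helper T cell subsets 2 rose and 2 fell, with 1 higher without control 2, knockdown 2 or knockdown 3 and 1 lower without any 1 of the 6 libraries. The costimulatory TNFRSF4 fell (7.03, 9.06 and 6.22 CPM to 2.45, 2.76 and 2.39 CPM), and IKZF2 lost its call without any 1 of the 6 libraries.

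Of 33 Notch pathway genes 5 fell and 4 rose. NOTCH1 (192, 257 and 225 CPM in controls, 195, 186 and 193 in knockdowns) and its target HES1 (74.9 ± 1.92 and 82.2 ± 2.62 CPM) were not called. The receptor NOTCH3 fell from 5.56, 5.55 and 6.26 CPM to 2.61, 2.12 and 2.28 CPM, HES4 from 27.5, 35.7 and 28.6 CPM to 18.2, 18.5 and 19.1 CPM and HES6 from 261 ± 18.2 to 203 ± 0.46 CPM. FBXW7, the ubiquitin ligase that degrades active Notch and MYC, rose from 21.9 ± 0.693 to 29.8 ± 0.467 CPM, and the coactivator MAML2 from 0.29 to 0.899 CPM.

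In the PI3K-AKT and RAS list of 39 genes 5 rose and 4 fell (3 higher without knockdown 1). PIK3R5, a regulatory subunit of PI3K gamma, fell from 21.5, 27 and 23.9 CPM to 10.7, 9.38 and 8.88 CPM. SPRY1, a feedback inhibitor of RAS signalling, fell from 98, 99.2 and 100.1 CPM to 51.8, 44.1 and 49.8 CPM, and its relative SPRY4, at 0.736 CPM in controls, rose to 1.82 CPM. The inositol phosphatase INPP5D (126 ± 11.2 to 86.2 ± 3.57 CPM) and FOXO3 (66.6 ± 0.439 to 45.8 ± 1.98) fell. Of 45 WNT, BMP and TGF-beta genes 5 rose and 3 fell (3 higher without control 1, knockdown 2 or knockdown 3), including the BMP antagonist NOG (7.18 ± 0.935 to 13.6 ± 1.33 CPM) and the WNT receptor FZD1 (14.2 ± 1.15 to 20.2 ± 0.76) upward and SMAD6 (1.51 to 0.634) and WNT10B (4.52 ± 0.399 to 2.96 ± 0.0613) downward.

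Inflammatory genes showed no common direction. Of 30 NF-kB genes 5 rose and 6 fell, with 2 lower without control 2 and 3 without knockdown 2. TNFAIP3, the feedback inhibitor A20, went from 49.1, 53.2 and 54.9 CPM to 91.1, 94 and 100.4 CPM, and CD83, an activation antigen, from 51.4, 44.2 and 55.6 CPM to 86.9, 91.9 and 99.1 CPM. TNF (0.54 to 2.49 CPM) and the inhibitor NFKBIA (56.3 ± 1.69 to 70.9 ± 2.67) rose too, and each was higher in every knockdown library. ICAM1 fell, as did the kinase IKBKE (35.6 ± 3 to 27.7 ± 0.45 CPM), which lost the call without control 2. Of 46 interferon response genes 8 fell and 3 rose. Their median, -0.04, changed sign between settings, and with scaling to library totals 8 rose. The number higher was 5 without control 3 and 1 without knockdown 3, and the number lower was 5 without knockdown 2 or knockdown 3. Those with the lowest p were IFITM2 (35.6 ± 2.85 to 17.8 ± 1.57 CPM), OAS2 (15 ± 1.43 to 8.63 ± 0.193) and EPSTI1 (4.11 ± 0.42 to 2.01 ± 0.108), all lower, while IFIT1 (5.02 ± 0.454 and 5.7 ± 0.292) was not called. Of 18 class I presentation genes 4 rose and 3 fell. The number lower was 1 without control 2, control 3, knockdown 2 or knockdown 3, and the number higher 2 without control 1. HLA-E fell (159 ± 9.07 to 118 ± 3.11 CPM), and the trimming peptidases ERAP1 (97.8 ± 3.18 to 137 ± 4.42) and ERAP2 (78.9 ± 10.8 to 112 ± 5.2) rose. The list median changed sign with library totals and without control 2, and reads of HLA genes can be shared between copies. Class II genes were nearly silent, with 3 of 16 at 1 CPM or more and CD74 at 0.163 and 0.193 CPM. Of the 16, none was called higher and 1 lower, HLA-DPA1, at under 1 CPM. HLA-DPA1 kept its call when each library was left out in turn, but no class II gene was called when the 6 libraries were fitted alone.

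Of 29 immediate early genes 7 fell and none rose. The number lower was 5 without control 2, knockdown 1 or knockdown 3. With no expression filter, or when the 6 libraries were fitted alone, 1 rose. JUN went from 19.9, 23.3 and 18.6 CPM to 8.32, 7.06 and 7.8 CPM, IER2 from 126 ± 9.05 to 87.5 ± 2.84 CPM, ATF3 from 39.8 ± 3.21 to 24 ± 2.49 and EGR1 from 2.53 ± 0.461 to 1.19 ± 0.216. JUN and NR4A1 lost the call with limma-voom, NR4A1 also without control 2, knockdown 1 or knockdown 3, and JUND (65 ± 3.34 and 55.1 ± 3.49 CPM) was not called.

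Many mitotic genes rose by small amounts. Of 44 tested, 20 were called higher and none lower, with a median of 0.25, and in 33 of the 44 every knockdown library was above every control (12.8% over all tested genes). The count was 11 without control 2, without knockdown 2 or without knockdown 3. ANLN, the cytokinesis scaffold anillin, stood at 53, 48.6 and 50.6 CPM in controls and 64.1, 67.9 and 69.8 CPM in knockdowns. KIF23, a kinesin of the central spindle, stood at 49.1, 43.6 and 53.8 CPM and 63.2, 62.8 and 67.5 CPM. NUSAP1, a spindle-associated protein, stood at 95.9, 82.4 and 93.2 CPM and 118, 124 and 126 CPM. Control 2 was the lowest library of each, and no knockdown overlapped a control. The kinesins KIF15 and KIF4A and the checkpoint kinase BUB1B rose by 0.30 to 0.38 on the log2 scale. CCNB1 (230.2 ± 22.7 and 269 ± 6 CPM) was just short of the threshold (edgeR adjusted p = 0.0571), and MKI67 (220.5 ± 29.4 and 285 ± 5) was not called. DNA replication genes had a median of 0.008. Of 43 only 4 rose, E2F2 (134 ± 7.75 to 187 ± 5.05 CPM), CCNE2 (18.6 ± 3.54 to 29.3 ± 2.36), UHRF1 (540.0 ± 42.1 to 671 ± 34.6) and RRM2 (272 ± 27.7 to 346 ± 9.58), the last not called without control 2, and MCM2 (503 ± 29.5 and 466 ± 19.5) and PCNA (561 ± 42 and 607 ± 16) overlapped. Whether the 2 lists differ was not tested.

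Cell cycle inhibitors and apoptosis genes included large single changes. BBC3, which encodes the BH3-only killer protein PUMA, fell from 7.61, 7.6 and 7.19 CPM to 2.13, 2.12 and 1.85 CPM, a fold change of -1.87 (SE 0.171, edgeR adjusted p = 7.86e-09). BCL2L1, which encodes the survival protein BCL-XL, rose from 121, 127 and 127 CPM to 173, 170.4 and 182 CPM, and BCL2 from 27.4, 25.7 and 29.8 CPM to 37, 35.4 and 37.7 CPM. These were the 3 called genes of 17 in the BCL2 family, and MCL1 (120.4 ± 11.8 and 119.8 ± 3.77 CPM) was not called. Of 31 p53 targets and cell cycle inhibitors, a list that also holds BBC3, 4 rose and 4 fell. The number lower was 3 without any 1 of the 6 libraries. CDKN1B, the inhibitor p27, rose from 51.2, 41.8 and 52.8 CPM to 72.3, 78.2 and 83.6 CPM, with control 2 the lowest control, and CDKN2D, the inhibitor p19, from 51.9 ± 2.27 to 66.2 ± 0.291 CPM. CDKN1A, the inhibitor p21, fell from 8.2 ± 0.51 to 5.09 ± 0.187 CPM, and SESN2 from 62.4 ± 4.19 to 40.4 ± 1.18 CPM, while CDKN2A was at or near 0.

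**Figure D4:**
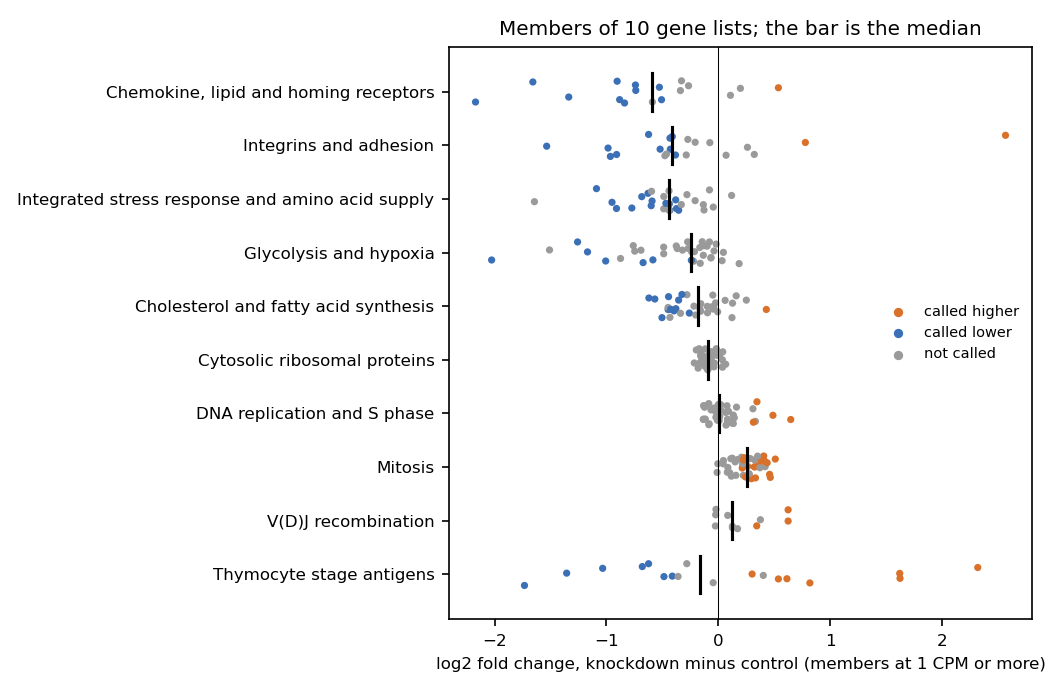
Log2 fold changes of the members at 1 CPM or more of 10 gene lists, 1 point a gene, in orange where called higher, blue where called lower and grey where not called; black bars are medians. Mitosis sits to the right with a median of 0.25, homing receptors to the left with -0.59, ribosomal proteins close to 0, and thymocyte antigens spread to both sides.

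Many genes of amino acid supply and the integrated stress response, which ATF4 drives when translation initiation is held back, fell. Of 30 tested 14 fell and none rose, with a median of -0.44, and 10 to 12 fell when each library was left out in turn. TRIB3, a pseudokinase target of ATF4, went from 249, 272 and 234 CPM to 134, 123 and 134 CPM. SLC1A5, the glutamine transporter, went from 661, 716 and 633 CPM to 421, 411 and 419 CPM. ATF4 itself went from 825, 773 and 732 CPM to 588, 565 and 566 CPM. In these 3 the knockdown libraries were close together and below every control. CEBPB (101 ± 5.87 to 66.7 ± 0.543 CPM) and both chains of the leucine transporter, SLC3A2 (619 ± 23.3 to 458 ± 8.5) and SLC7A5 (1036 ± 89 to 799 ± 23.9), fell likewise. The unfolded protein response, the neighbouring pathway of the endoplasmic reticulum, had 1 of 24 genes higher (PDIA4) and 1 lower (EDEM1), and its chaperone HSPA5 (437 ± 29.4 and 516 ± 6.38 CPM) was not called. EDEM1 lost the call without any 1 of the 6 libraries, and the number higher was 2 without control 1 or control 2 and 4 with library totals.

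Of 42 glycolysis and hypoxia genes 8 fell and none rose, with a median of -0.24. The count was 21 when the 6 libraries were fitted alone, 16 without a filter and 5 without knockdown 2. Beside EPAS1 these included VEGFA, the angiogenic growth factor (51.9, 55.3 and 52.4 CPM to 25, 21.8 and 24.1 CPM), the lactate exporter SLC16A3 (32.7, 34.6 and 35 CPM to 17.2, 16.1 and 17.7 CPM) and hexokinase 1, HK1 (233 ± 9.12 to 155 ± 6.76 CPM). ADM, an adrenomedullin gene of low level, fell from 1.07 to 0.053 CPM. HIF1A (46.2 ± 3.9 and 45.7 ± 1.84 CPM) overlapped between groups, and GAPDH (7016 ± 336 and 6352 ± 181) and PKM (1552 ± 84.1 and 1424 ± 61.8) were not called.

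Of 36 genes of cholesterol and fatty acid synthesis 11 fell and 1 rose, with a median of -0.18. The number lower was 6 without control 2 or knockdown 3, 7 without knockdown 1, 5 without knockdown 2 and 7 with library totals. FDPS, which makes farnesyl pyrophosphate, went from 537, 506 and 510.1 CPM to 352, 346 and 350.2 CPM, and squalene synthase, FDFT1, from 914, 846 and 884 CPM to 653, 635 and 649.7 CPM. The sterol reductase TM7SF2 (33.6 ± 1.48 to 21.8 ± 1.06 CPM) and HSD17B7 (38.2 ± 3.28 to 28.1 ± 2.02) fell too. The regulator SREBF2 (556 ± 47.5 and 483 ± 10.8) was not called.

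None of 50 cytosolic ribosomal protein genes was called by edgeR (RPL3, 2625 ± 78.6 and 2486 ± 53.1 CPM), with 2 lower at an unadjusted p under 0.05 and 0 called by DESeq2 or limma-voom. Their median was -0.09, 43 of the 50 were below 0 and 31 had every knockdown library below every control, against 15.9% over all tested genes, and 4 were called lower when the 6 libraries were fitted alone. Of 45 genes of ribosome biogenesis and nucleotide synthesis 3 fell (1 without control 2 or knockdown 2, and 8 with DESeq2), of which NOC2L (311 ± 17.2 to 247 ± 3.39 CPM) kept the call without control 2. Of 44 nuclear genes of oxidative phosphorylation 4 fell and 1 rose, COX7C (202 ± 6.74 to 281 ± 6.98), and of those 4 none was called without control 1, knockdown 2 or knockdown 3 and at most 1 without any other library. None of 13 protein-coding genes of the mitochondrial genome was called by edgeR, DESeq2 or limma-voom, or had an unadjusted p under 0.05, but without the expression filter edgeR called 3 higher. In the S100 and annexin family 6 of 18 fell and 1 rose (3 lower without control 2 or knockdown 2). S100A11, a calcium-binding partner of annexins, went from 45.9, 48.8 and 44.3 CPM to 24.7, 22 and 23.4 CPM, and ANXA6 rose from 200.2 ± 4.39 to 253 ± 7 CPM. Of 13 retinoic acid pathway genes 3 fell (1 without control 2, knockdown 2 or knockdown 3), and 1 rose without control 1. ALDH1A2, which makes retinoic acid from retinal, stood at 256, 227 and 244 CPM in controls and 132, 123 and 119 CPM in knockdowns. Of 27 chromatin regulators CTCF rose (187 ± 7.75 to 229 ± 9.52 CPM), EZH2 rose with its call lost without control 2 or knockdown 2, and DNMT3B fell (37.3 ± 1.04 to 26.5 ± 0.647 CPM). SCG2 was the 1 called gene among 16 of granins and regulated secretion.

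Genes of other blood lineages were called in both directions. Of 22 B lineage genes IGHM rose and CD79B (21, 21.8 and 21.1 CPM to 13.3, 11.2 and 12.9 CPM) and the surrogate light chain IGLL1 (95.4 to 58.5) fell, the last not called without control 2 or knockdown 2. IGHD, IRF8 and CD72 were also called, and lost the call without control 2, control 3 or knockdown 1, among others. Among 17 myeloid genes CEBPE fell (5.29, 5.71 and 4.72 CPM to 2.85, 2.49 and 2.47 CPM) and MPO rose from 0.501 to 2.18 CPM, a call lost without control 1. CSF2RA, with no count in controls, reached 0.12 CPM, a call lost without knockdown 2. The summed level of the 6 myeloid markers, 0.348 to 0.809 CPM in controls and 2.29 to 2.86 CPM in knockdowns, was nearly all MPO, while CSF1R, LYZ and CD33 were at or near 0. Of 10 erythroid, megakaryocyte and mast cell genes RHEX and EPOR fell. Of 17 cytotoxic genes GZMA (20.5, 18.9 and 18.3 CPM to 8.88, 7.67 and 8.45 CPM) and PRF1 (3.48, 3.83 and 2.98 CPM to 1.25, 1.04 and 1.58 CPM), the granzyme and the pore of killer granules, fell, and CST7 lost the call without control 3, knockdown 2 or knockdown 3. EPCAM and PECAM1, the 2 genes called lower among 11 non-haematopoietic markers, lost the call without control 2, among other libraries.

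The response was then set beside that of 2 other T-ALL lines, MOLT4 (2 control and 2 knockdown libraries) and THP6 (3 and 2), which share no library with CCRF-CEM. The fourth T-ALL line of the series, SUP-T1, was not used, since GATA3 was higher in its libraries labelled knockdown than in those labelled control. The response of CCRF-CEM differed from the mean of MOLT4 and THP6 for 6.39% of tested genes, 2.22% higher and 4.17% lower (edgeR, adjusted p under 0.05). With scaling to library totals 59.45% of the calls were higher, against 34.72%. GATA3 was not called by this test (0.29, SE 0.108, edgeR adjusted p = 0.116, unadjusted p = 0.0115), which does not show an equal depth of knockdown. Its log2 fold change was -0.97 for CCRF-CEM, against -1.45 for MOLT4 and -1.06 for THP6. The part of knockdown depth in the differences between these lines was not tested. In MOLT4 alone 19.2% of tested genes were called and in THP6 alone 7.4%. Of the 1783 genes called in CCRF-CEM, 551 were called the same way in MOLT4, which is 30.9% of the CCRF-CEM calls and 13.6% of those of MOLT4, and 191 the opposite way. In THP6 203 went the same way (11.4% and 13%) and 64 the opposite way. Called alike in all 3 lines were 100 genes, 32 higher and 68 lower. Among them were EPAS1 (log2 fold changes -2.03, -0.75 and -0.45 in the order CCRF-CEM, MOLT4, THP6), LYL1 (-1.66, -2.18 and -0.62), KCNH2 (-1.46, -1.76 and -0.56), LTB (1.65, 3.62 and 1.35), PTPN3 (1.60, 0.65 and 0.43) and CEBPE (-1.004, -4.38 and -1.67).

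Of the genes chosen for the size of this difference, ALDH1A2 fell in CCRF-CEM by less (-0.96) than in MOLT4 (-5.90) and THP6 (-2.36), a difference of 3.17 (SE 0.15, edgeR adjusted p = 1.59e-13). ETV4, an ETS family factor, fell in CCRF-CEM (8.61, 9.06 and 9.66 CPM to 4.86, 4.27 and 4.25 CPM) and rose in MOLT4 (1.64) and THP6 (1.71), a difference of -2.71 (SE 0.298, edgeR adjusted p = 4.6e-07). NOTCH3, named above, moved in the same way as ETV4, at -1.32, 2.81 and 1.301 in the 3 lines (difference -3.38, SE 0.315, edgeR adjusted p = 2.4e-08), as did CDKN1A, at -0.69, 2.41 and 1.27 (difference -2.54, SE 0.222, edgeR adjusted p = 9.79e-09). The rise of SCG2 (difference 3.48) and the noncoding LINC00891 (2.49) and the fall of ANXA1 (-2.35) and CCR4 (-1.55) also differed. LINC00891 rose in CCRF-CEM (30.1 ± 2.36 to 44.4 ± 1.59 CPM) and fell in MOLT4 (-4.11), while in THP6 it was not called (0.24).

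**Figure D5:**
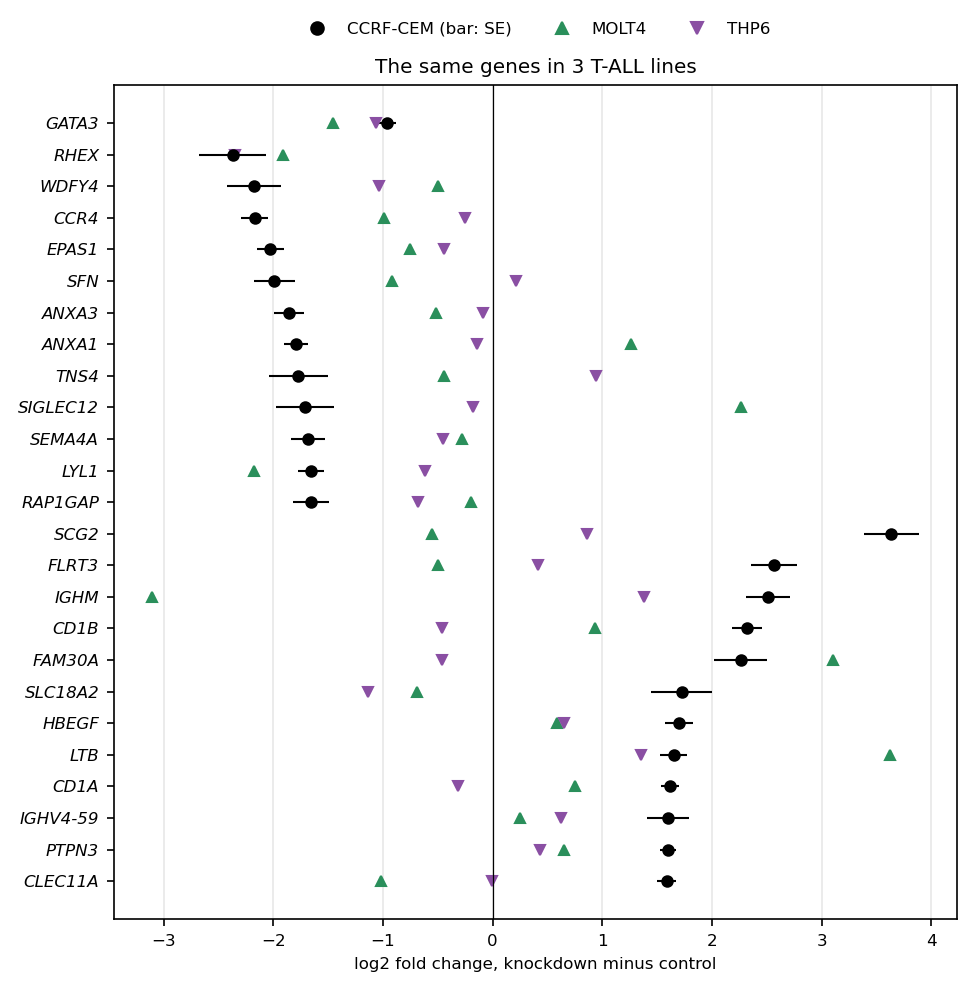
Log2 fold changes of GATA3 and of the 12 lowest and 12 highest genes of CCRF-CEM (black, bars are SE) with the values of the same genes in MOLT4 (green, upward triangles) and THP6 (purple, downward triangles), drawn without error bars. The genes were chosen for the size of their change in CCRF-CEM; MOLT4 and THP6 lie on the same side of 0 for GATA3, RHEX, CCR4, EPAS1, LYL1, LTB and PTPN3 among others, MOLT4 lies on the other side for ANXA1 and CLEC11A, and the values of genes hardly counted in those lines, such as IGHM and FAM30A, were not called there.

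Against the 3 cutaneous T cell lymphoma lines, H9 (2 and 3 libraries), MyLa (3 and 3) and Mac1 (2 and 2), the CCRF-CEM response differed for 4.92% of tested genes, 1.23% higher and 3.69% lower, and with scaling to library totals 46.3% of the calls were higher, against 24.98%. CCR4 (-1.78, SE 0.142, edgeR adjusted p = 3.25e-09), EPAS1 (-2.68, SE 0.172, edgeR adjusted p = 2e-11), IKZF1 (-0.90, SE 0.0823, edgeR adjusted p = 1.76e-08) and BBC3 (-2.06, SE 0.19, edgeR adjusted p = 2.1e-08) had lower fold changes in CCRF-CEM than the mean of the lymphoma lines. Of these, EPAS1 rose in H9 (0.62) and Mac1 (1.63) and IKZF1 in H9 (0.30), while CCR4 fell in H9 (-0.90). FLRT3 (2.02), HBEGF (1.44), PTPN3 (1.44), TNFAIP3 (1.13) and the calcium-dependent kinase CAMK4 (1.17), which went from 14.1, 13.9 and 15.7 CPM to 34.9, 36.5 and 34.3 CPM in CCRF-CEM, had higher fold changes than that mean, and TNFAIP3 was not called in any lymphoma line. Called in H9, MyLa and Mac1 themselves were 1.82%, 1.88% and 7.89% of tested genes. GATA3 was not called by the test of a difference from the lymphoma lines, which does not show an equal depth of knockdown. The part of knockdown depth in these differences was not tested. Of the CCRF-CEM calls, 91 were called the same way in H9 (5.1% of them and 23.7% of the H9 calls), 71 in MyLa (3.98% and 17.9%) and 170 in Mac1 (9.53% and 10.2%). Called the opposite way were 42 in H9, 36 in MyLa and 133 in Mac1. The noncoding RNAs RPPH1, RMRP and the 3 entries of equal counts passed the test of a difference from the lymphoma lines, with control 2 far above every other library of CCRF-CEM: RPPH1 was at 7.76, 68.7 and 1.51 CPM in controls and 2.33, 0.605 and 2.08 CPM in knockdowns. Without control 2 RPPH1 was not called in CCRF-CEM (-1.44, edgeR adjusted p = 0.261), nor were RMRP (-0.88, edgeR adjusted p = 0.679) and the 3 entries (-0.62, edgeR adjusted p = 0.689).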

How the data were processed

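Per the submitters' processing notes, reads were trimmed with cutadapt 2.3, aligned with STAR 2.7.8a and quantified with RSEM 1.3.3 on GRCh38. The deposited expected counts of the authors were whole numbers for all 60623 gene IDs, and 5 further entries that name no gene held 0 counts. CCRF-CEM libraries held 19371069 to 31690823 counts and all 36 held 18624330 to 50626644. Replicates were compared in one edgeR 4.0.16 quasi-likelihood model of all 36 libraries in 14 groups (R 4.3.3, limma 3.58.1), after filterByExpr (21138 genes) and TMM scaling, with Benjamini-Hochberg adjustment over all tested genes and a threshold of 0.05. CPM were computed with TMM-scaled library sizes. Differences between lines are contrasts of log2 fold changes in that model. DESeq2 1.42.0 and limma-voom, other scalings and filters, the 6 libraries alone, a replicate block and leaving out libraries were alternatives. Python 3.11.15, pandas 2.3.3, numpy 2.4.6 and matplotlib 3.10.9 made tables and figures.

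Named genes were GATA3, the 12 called, non-overlapping genes of at least 5 CPM with the largest fold changes in each direction, the 5 of lowest p at 100 CPM or more, the 5 largest of each difference test, and up to 6 called members of each of 40 lists. A list member that was not called is given as a value only. Members and lists were chosen with earlier results of these data known. On simulated data (20757 genes, 200 changed, dispersion 0.01) the knockdown comparison recovered 83% of 1.5-fold and 100% of 2-fold changes with 3.17% false calls. For the difference from MOLT4 and THP6 these were 51%, 93% and 5.88%, and for that from the lymphoma lines 61%, 94% and 6.63%. The simulation gave every gene the same dispersion, changed only genes of at least 5 CPM and had no library like control 2. These shares therefore need not hold for the data. Coordinates and gene types come from GENCODE 29 (58516 IDs, 96.5%), promoters from RefSeq. The sources used here do not give the authors' annotation, the strand setting or the hairpin sequences. Some members of the lists are not reported here.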

Additional observations from a re-analysis of the deposited data

Results flagged for a closer look

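Of 45 genes chosen for their size, level or difference, 26 responded differently in CCRF-CEM from the mean of MOLT4 and THP6 and 25 from the mean of H9, MyLa and Mac1 by the edgeR test of the difference, 14 of them by both. Values are differences of log2 fold changes, CCRF-CEM minus the other lines. The level floor was set on the CCRF-CEM libraries only, so some of these genes may be hardly counted in the other lines. A difference can also exceed the change in CCRF-CEM itself, as for LYL1 against the lymphoma lines (-2.95, with -1.66 in CCRF-CEM). The genes of this set were partly chosen for such differences or for large changes in CCRF-CEM, so the number is a description.

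Against MOLT4 and THP6 the response was lower for WDFY4 (-1.41), CCR4 (-1.55), EPAS1 (-1.43), ANXA1 (-2.35), TNS4 (-2.02), SEMA4A (-1.31), RAP1GAP (-1.21), LTB (-0.83) and ETV4 (-2.71). For LTB this was a smaller rise, not a fall. It was higher for SCG2 (3.48), SLC18A2 (2.64), HBEGF (1.08), CD1A (1.40), PTPN3 (1.06), CLEC11A (2.10), CDKN2C (0.50), SATB1 (1.12), SERPINH1 (2.53), NREP (0.86), LINC00891 (2.49), CAMK4 (1.19) and ALDH1A2 (3.17), the last a smaller fall.

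Against H9, MyLa and Mac1 the response was lower for CCR4 (-1.78), EPAS1 (-2.68), SFN (-2.09), ANXA1 (-1.60), SEMA4A (-1.98), LYL1 (-2.95), KCNH2 (-1.39), VAT1 (-0.89), STAT5A (-0.67), IKZF1 (-0.90) and IL32 (-1.28). It was higher for FLRT3 (2.02), HBEGF (1.44), PTPN3 (1.44), CDKN2C (0.81), SATB1 (1.02), ITM2C (0.35), SERPINH1 (0.50), CAMK4 (1.17) and TNFAIP3 (1.13).

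The noncoding RNAs that were high in control 2 passed these tests too. RPPH1 differed by -4.36 from MOLT4 and THP6 and by -4.55 from the lymphoma lines, and FP671120.6, FP236383.4 and FP236383.5, which hold equal counts, by -3.23 and -4.30. RMRP differed from the lymphoma lines by -5.10. Without control 2 none of the 5 was called in CCRF-CEM itself.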

How the results depend on the processing

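GATA3 was called lower under every alternative run, with log2 fold changes from -0.993 to -0.886. Leaving out each CCRF-CEM library in turn gave 1083 to 1547 called genes, 849 to 1210 for the difference from MOLT4 and THP6 and 601 to 958 for that from the lymphoma lines. In all 3 the count moved by over 1.5 times without control 2 (1150, 849 and 601), knockdown 2 (1083, 865 and 643) or knockdown 3 (1158, 900 and 676). These fits have fewer libraries. Without control 2, 43.3% of the knockdown calls and 47% of the calls of the difference from MOLT4 and THP6 were higher, against 35.61% and 34.72%. Requiring a log2 fold change of at least 1 kept 402 genes, by construction. Without THP6 the difference from MOLT4 alone held for 2370 genes, 46.58% of them higher; without MOLT4, 22.35% of the calls against THP6 were. The causes of the other shifts were not tested.

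Replicate numbers did not pair the libraries: deviations of same-numbered libraries correlated at -0.284, -0.113 and 0.247, and control 2 correlated best with knockdown 1 (0.367). With the number as a replicate block 1648 genes were called in all libraries and 1777 in the 6 alone, with GATA3 at -0.965 and -0.945. For the differences the block gave 1427 calls (42.96% higher) and 833.

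DESeq2 called 2158 genes and limma-voom 1915, and the other settings of scaling and filter 1665 to 1842. With the spread taken from the 6 CCRF-CEM libraries alone 2147 genes were called, 42.85% of them higher. That fit kept 1488 of the 1783 calls. Of 191 named genes 146 kept the call in every alternative that gave them a value, 45 lost it under at least 1 and 0 changed direction; 5 genes had no value in at least 1 of the 15 alternatives. Of genes under 1 CPM 2.15% were called, and the part of depth in this share was not tested.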

Other observations

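Genes called in the same direction in CCRF-CEM, MOLT4 and THP6 included several outside the lists above, named here after their values were seen. PPM1H, a protein phosphatase, stood at 123, 113 and 125 CPM in the CCRF-CEM controls and 51.1, 39.9 and 45.6 CPM in the knockdowns, with log2 fold changes of -1.40, -2.51 and -1.08 in the 3 lines in that order. B4GALT3, a galactosyltransferase of the Golgi, stood at 60.6, 61.1 and 57.8 CPM and 28.8, 25.7 and 27.1 CPM (-1.14, -1.44 and -0.82). CCND2, the G1 cyclin D2, fell by less in CCRF-CEM than the values seen in the other lines (-0.68, -2.34 and -2.49; the difference was 1.73, edgeR adjusted p = 3.02e-05). TNFRSF8, the activation receptor CD30, also fell in all 3 (-0.73, -2.37 and -0.85). TULP3, a regulator of traffic into cilia, rose in all 3 (1.53, 1.27 and 1.04).

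By gene type, 554 of 15046 protein-coding genes tested rose and 1079 fell. Among antisense genes more were called higher than lower (24 and 10 of 1397), as among processed pseudogenes (11 and 3 of 1455). Both types were called less often than the 8.44% of all tested genes, of which 3% were higher and 5.43% lower. Since the strand setting is not given, antisense genes may hold reads of the genes they overlap. Long intergenic noncoding genes were even, with 22 of 1274 higher and 21 lower. The differences between types were not tested.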
